A study of Mus musculus with 21 samples.

Results

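The regions described here are the 518 of 724 KO-higher FTneg regions that carried a NuRD subunit peak. A KO-higher FTneg region is a stretch of chromatin that the authors called more accessible in Dlx1/2 knockout (KO) than in wild-type (WT) FTneg cells of the mouse ganglionic eminences. A region was taken when it lay on chromosomes 1 to 19 or X and shared at least 1 bp with a chromatin immunoprecipitation (ChIP) peak of at least 1 of 6 subunits of the NuRD complex. The 518 regions were 71.5% of the list (Wilson 95% interval 68.2 to 74.7%), 206 regions carried no peak, and 3 regions on Y were left out. The regions were chosen by 2 measured values, the accessibility difference between KO and WT and the presence of a ChIP peak, so areas and the presence of any peak are given as descriptions with no test; tests below compare which lists, heights and positions occurred among sites that all carry a peak, or gene positions with and without one. Of the 780 FTneg regions deposited in either direction, 727 (93.2%) were KO-higher.

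Accessibility was measured by ATAC-seq, which reads out where a transposase can enter chromatin, at E12.5 (embryonic day) in CD1 embryos of 2 genotypes, WT and Dlx1/2KO, with 3 embryos per genotype. The series' design text assigns the FTpos fraction to the ventricular zone and the FTneg fraction to the subventricular and mantle zones. Both fractions carry the same embryo numbers in each genotype, but the labels do not state outright that they came from the same embryos. ChIP-seq was done at E13.5 on the basal ganglia primordium of CD1 embryos, for which the labels name no genotype and no fraction, with 1 library each for CHD4, HDAC1, HDAC2, MBD3, RBBP4 and RBBP7 and 3 input libraries. The ChIP peaks therefore describe older tissue, not sorted cells of either genotype. The 3 embryos of a genotype were combined in each deposited accessibility list, so no list had a replicate and no value below has a spread over embryos. In such bulk material, more cells with an open region and more opening per cell cannot be told apart. The WT-higher FTneg list held regions at Dlx1 and Dlx2, the genes removed in the KO, with areas of 7825 and 21511.

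For 3 of the 6 ChIP samples the name carried by the attached list differed from the sample's label. The CHD4 sample came with a list called HDAC1, the HDAC1 sample with a list called HDAC2 and the HDAC2 sample with a list called CHD4, while RBBP4, RBBP7 and MBD3 carried their own names. These 3 lists are called CHD4-labelled, HDAC1-labelled and HDAC2-labelled throughout, and which name is right was not settled. The labels pair RBBP4 and RBBP7 with input 3, CHD4 and MBD3 with input 2, and HDAC1 and HDAC2 with input 1. Lists with a common input are not independent of each other. Of the 518 regions, 504 carried a peak of RBBP4, RBBP7 or MBD3, and 14 were included only through a list with a differing name.

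NuRD joins a nucleosome remodelling ATPase, CHD4 in neural progenitors, to the histone deacetylases HDAC1 and HDAC2, and is best known for lowering the activity of enhancers and promoters. MBD3 is a scaffold that bridges the remodelling and deacetylase modules, and RBBP4 and RBBP7 are histone-binding proteins that also belong to other complexes, among them PRC2 and SIN3. DLX1 and DLX2 are homeodomain transcription factors that ganglionic eminence cells switch on as they leave the ventricular zone and that are needed for the differentiation and migration of GABAergic neurons.

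To show what these regions look like in sequence, the 250 bases upstream of the annotated transcription start are printed for 5 promoters at which KO-higher accessibility and ChIP peaks met (RefSeq, GRCm38.p6, the assembly of mm10). They are given 5′ to 3′ on the strand of the gene. The promoters shown from regions with all 6 lists are Gm51889, a predicted transcript starting inside Tenm2 (chr11:36697284-36697533, plus strand), and Zswim6, a zinc finger gene (chr13:107890065-107890314, minus strand). Ankrd6, which encodes the Wnt pathway protein Diversin (chr4:32923506-32923755, minus strand), lay under peaks of RBBP4, RBBP7, MBD3 and the HDAC2-labelled list. Sp5, a zinc finger transcription factor gene and known Wnt target (chr2:70474673-70474922, plus strand), lay in a region with 3 lists, of which RBBP4 reached the printed bases. Otp, a homeobox gene best known from the hypothalamus (chr13:94875386-94875635, plus strand), carried RBBP4 alone. All 250 bases lay inside the KO-higher region for 4 of them, and 215 bases for Zswim6. Capitals mark a match to CAGCTG, an E-box of the kind that basic helix-loop-helix factors recognise, and the others printed hold no match.
Gm51889: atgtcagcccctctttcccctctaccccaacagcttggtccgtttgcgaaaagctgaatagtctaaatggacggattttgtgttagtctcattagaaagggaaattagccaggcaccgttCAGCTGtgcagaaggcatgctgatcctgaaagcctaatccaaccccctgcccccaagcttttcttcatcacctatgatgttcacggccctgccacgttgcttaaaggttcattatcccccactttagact
Zswim6: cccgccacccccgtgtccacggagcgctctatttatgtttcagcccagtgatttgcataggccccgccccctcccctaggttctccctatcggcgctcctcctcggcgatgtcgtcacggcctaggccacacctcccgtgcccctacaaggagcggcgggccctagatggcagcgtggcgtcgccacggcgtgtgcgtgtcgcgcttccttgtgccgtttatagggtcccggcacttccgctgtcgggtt
Ankrd6: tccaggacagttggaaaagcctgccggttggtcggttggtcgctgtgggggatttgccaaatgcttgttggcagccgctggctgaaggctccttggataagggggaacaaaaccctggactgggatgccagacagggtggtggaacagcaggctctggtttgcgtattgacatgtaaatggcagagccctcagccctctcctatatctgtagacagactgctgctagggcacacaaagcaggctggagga
Sp5: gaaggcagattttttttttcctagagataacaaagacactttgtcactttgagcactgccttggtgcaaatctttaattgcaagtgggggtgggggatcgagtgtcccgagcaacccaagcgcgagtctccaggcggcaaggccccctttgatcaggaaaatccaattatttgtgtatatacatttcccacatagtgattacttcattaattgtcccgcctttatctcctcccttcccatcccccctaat
Otp: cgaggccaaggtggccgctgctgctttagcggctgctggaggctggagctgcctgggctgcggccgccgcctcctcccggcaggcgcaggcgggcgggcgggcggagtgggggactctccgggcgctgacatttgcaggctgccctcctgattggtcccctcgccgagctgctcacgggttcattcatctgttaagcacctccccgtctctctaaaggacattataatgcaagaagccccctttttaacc

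A set of 3 motifs was searched on both strands in the 18 promoters of this length that touched 1 of the 518 regions. TAATTA, the core that many homeodomain proteins bind, was in 0 of the 18 and in 4.84% of all 32851 promoters of the RefSeq table. CAGCTG was in 2 of the 18 (Gm29695 and Gm51889) against 13.0% of all promoters. ACAATG, a core bound by SOX proteins, was in 2 of the 18 (Myt1, with 2 matches, and Gm36620) against 10.7%. With 18 windows these counts are a description of the letters only. Most of the 518 regions lay far from any start site, and their own sequence was not used here because no genome of this build was at hand.

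The accessibility value of a region is its area, the sum of −log10 p of the KO-over-WT comparison along the region as the authors' caller gave it, with 500 as the authors' minimum. Areas of the 518 regions ran from 500.1 to 4771 with a median of 718, and widths from 265 to 2712 bp with a median of 700 bp. The 206 regions without a peak had a median area of 649, a greatest area of 45029.5 and a median width of 574 bp. Wider regions had more room to touch a peak. Among the 518, the region of greatest area lay 219298 bp from Prkd1, which encodes protein kinase D1 (chr12:50120201-50122912), and carried all 6 lists. It was followed by a region inside Ap3b1, a subunit of an endosomal adaptor complex, with an area of 2655 and 4 lists. A region far from Cited2, a transcriptional co-regulator, had an area of 2538 and 3 lists, and a region 16160 bp from Zfp324 had an area of 2345 and 3 lists. Both Auts2 regions among the 10 of greatest area, 2215 and 2087, carried all 6 lists. Tle1, a Groucho corepressor gene, had a region of 2168 with RBBP4 alone, and Hat1, a histone acetyltransferase gene, a region of 2139 with all 6. In that Hat1 region only the RBBP7 peak had its summit inside. A Tmem229a region (1994, 5 lists) and an Fbxl17 region (1965, 6 lists) completed the 10. Large areas were thus found with few and with many lists. All 6 lists were on 25.4% of the regions with areas of at least 1000, against 18.3% of all 518.

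Just inside the rule lay a region at Pgk1 that shared 7 bp with a CHD4-labelled peak, a region nearest to Nebl with 16 bp of RBBP7, and a region at H3c7 with 41 bp of the CHD4-labelled list. Just outside lay regions 22 bp, 37 bp and 60 bp from the nearest peak, nearest to Alpk2, Pax6 and Abt1. At the authors' area limit, the lowest members had 500.1 (nearest to Plxna2), 500.6 (Egfl6) and 500.7 (Slc36a4). The Slc36a4 region nevertheless carried 5 lists, with an RBBP7 peak of 14.0-fold.

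RBBP4 was the most frequent subunit on these regions. Its peaks lay on 480 of the 518 (92.7%, 90.1 to 94.6%), and RBBP7 peaks on 315 (60.8%, 56.5 to 64.9%). The CHD4-labelled list was present on 285 (55.0%), MBD3 on 263 (50.8%), the HDAC2-labelled list on 188 (36.3%) and the HDAC1-labelled list on 163 (31.5%). The order partly followed the length of the lists, which held 29762 peaks for RBBP4, 18274 for the CHD4-labelled list, 14918 for RBBP7, 11721 for MBD3, 11288 for the HDAC1-labelled and 5517 for the HDAC2-labelled list. RBBP7 and the HDAC2-labelled list stood above their place in that order. No list stood in for RBBP4 often, since only 38 regions lacked it.

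RBBP4, on 92.7% of the regions, was on at least 93.3% of those with each other list, and overlap among the others was less complete. All 163 regions with an HDAC1-labelled peak also had an RBBP4 peak, as did 98.4% of those with an HDAC2-labelled peak and 98.5% of those with MBD3. MBD3 accompanied 84.7% of HDAC1-labelled and 86.7% of HDAC2-labelled peaks. RBBP7 accompanied 70.5% of CHD4-labelled and 77.9% of MBD3 peaks. In reverse, 34.0% of the RBBP4 regions carried the HDAC1-labelled and 38.5% the HDAC2-labelled list. The 2 HDAC-labelled lists met on 111 regions, 68.1% of the first and 59.0% of the second, although they share an input.

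Of 63 possible combinations of the 6 lists, 37 occurred. The most frequent was all 6 lists together, on 95 regions (18.3%, 15.2 to 21.9%), and RBBP4 alone came next with 89 regions. This count depended on the peak threshold: with ChIP peaks of −log10 q of at least 10, all 6 lists were on 28 regions (6.71%), and the order of the combinations was not recomputed there. RBBP4 with RBBP7 followed with 48, and all lists but the HDAC1-labelled with 31. RBBP7 stood alone on 18 regions, the CHD4-labelled list on 13 and MBD3 on 2, 344426 bp from Cdc73 and inside Fam172a, whereas neither HDAC-labelled list was ever alone. From 1 to 6 lists the regions numbered 122, 93, 77, 70, 61 and 95, so the distribution had a mode at each end, and 303 regions (58.5%) carried 3 lists or more.

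**Figure D1:**
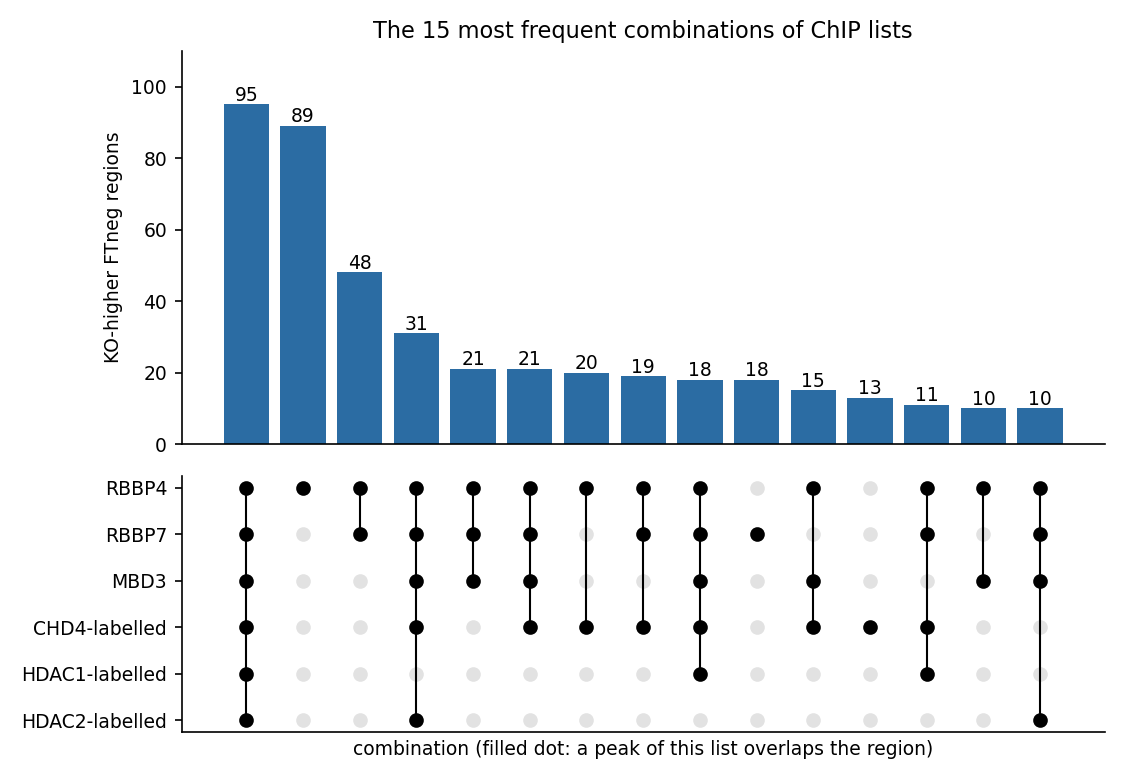
Number of KO-higher FTneg regions (upper panel, y axis) for each of the 15 most frequent combinations of ChIP lists, with filled dots below naming the lists of a combination. All 6 lists together (95 regions) and RBBP4 alone (89) stand at the left, and the next combination, RBBP4 with RBBP7, holds 48.

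Regions with more lists had taller RBBP4 and RBBP7 peaks, a pattern that the other lists shared in part or not at all. The median RBBP4 fold enrichment, the authors' ratio of ChIP to input at the summit, was 4.67 on regions with 1 list and 9.39 on regions with 6. For RBBP7 the medians were 5.54 and 9.91. The MBD3 median was 5.45 on the 2 regions with MBD3 alone, 4.42 with 2 lists and 6.32 with 6, and the CHD4-labelled median was 5.2, 4.77 and 6.98. The HDAC1-labelled median was 4.66 with 2 lists and 5.32 with 6, while the HDAC2-labelled median was 4.94 with 2, 4.01 with 4 and 4.86 with 6. Median areas from 1 to 6 lists were 684, 737, 735, 736, 707 and 765, and median widths ran from 599 bp with 1 list to 831 bp with 6. A wider region can touch more peaks, and the part of width in these counts was not tested beyond the comparison by width given further on.

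**Figure D2:**
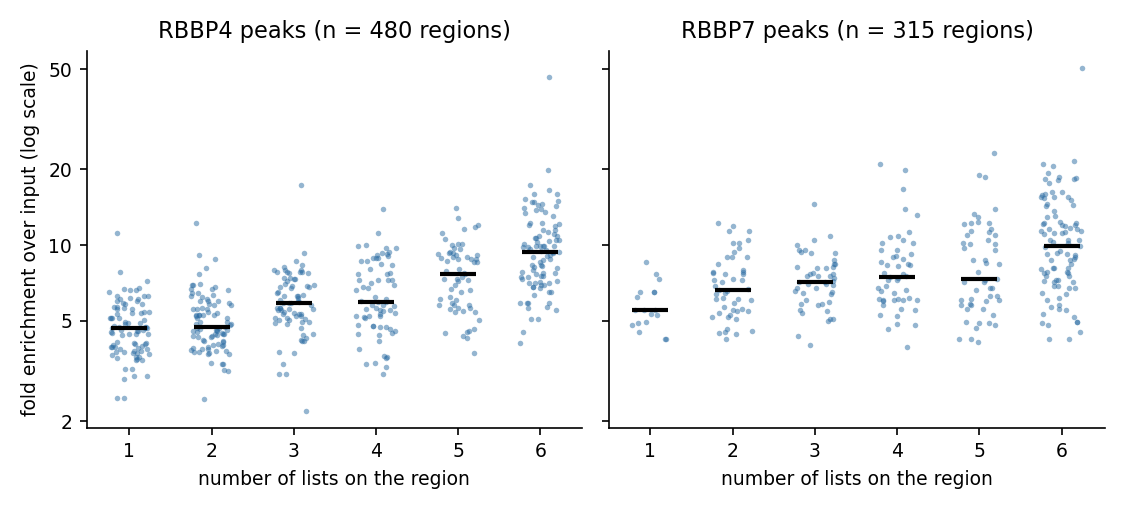
Fold enrichment over input (y axis, log scale) of the RBBP4 peak (left, 480 regions) and the RBBP7 peak (right, 315 regions) on each region, by the number of lists on that region (x axis); each point is a region and black bars are medians. The median moves from 4.67 to 9.39 for RBBP4 and from 5.54 to 9.91 for RBBP7 between 1 and 6 lists, with overlapping clouds.

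To ask whether such shared occupancy was more frequent here than at other NuRD sites, the peaks of the 6 lists were merged into 38820 regions. Of the 517 merged regions on a KO-higher FTneg region with a peak, 102 held all 6 lists (19.7%, 16.5 to 23.4%). Elsewhere 1425 of 38303 did (3.72%, 3.54 to 3.91%). The odds ratio was 6.36 (Fisher's exact test, two-sided, p = 4.53e-42). Read the other way, 0.648% of merged regions with 1 list, 1.1% with 2, 1.62% with 3, 1.94% with 4, 2.60% with 5 and 6.68% with 6 lay on such a region. Merged regions on them were also wider (median 811 against 594 bp), and among those of 500 to 1000 bp the shares were 5.24% and 1.57% (odds ratio 3.47, exact test, p = 0.000641). The test compares sets of regions, which are not replicates of embryos or of ChIP libraries.

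**Figure D3:**
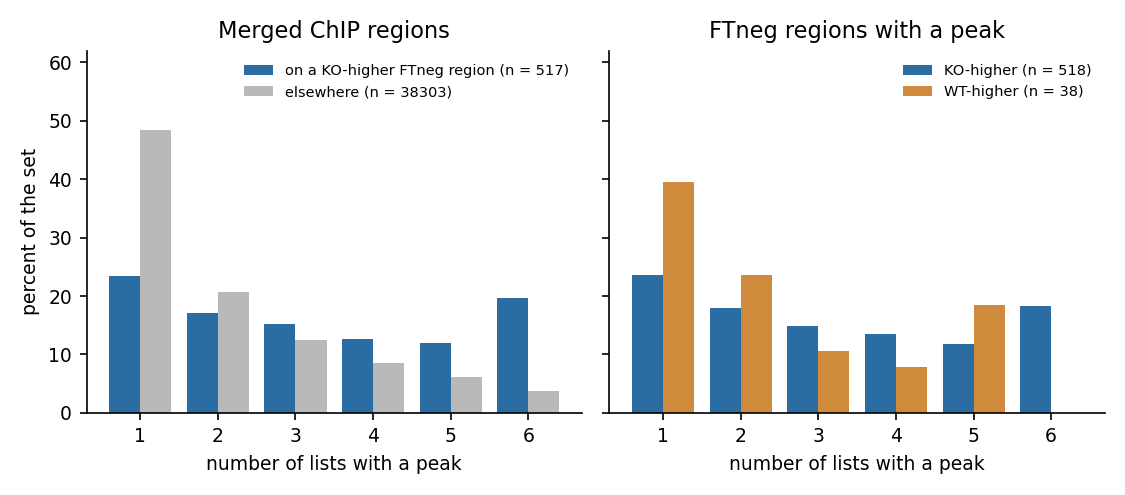
Percent of each set (y axis) by number of lists with a peak (x axis), for merged ChIP regions on a KO-higher FTneg region or elsewhere (left) and for KO-higher and WT-higher FTneg regions with a peak (right). At 6 lists the left panel shows 19.7% against 3.72%, and the right panel 18.3% against 0 of 38 regions. Of those 38, only 3 carried RBBP7 and so could have held all 6.

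Tall peaks of RBBP4, RBBP7, MBD3 and the HDAC2-labelled list were more frequent on these regions than elsewhere in the same list. Among RBBP4 peaks, 134 of 478 on a region (28.0%, 24.2 to 32.2%) ranked in the top 10% of fold enrichment of the list, against 9.71% of 29284 elsewhere (odds ratio 3.62, exact test, adjusted p = 2.22e-28). For RBBP7 the shares were 27.3% of 322 (22.8 to 32.4%) and 9.62% (odds ratio 3.53, exact test, adjusted p = 1.33e-18). For MBD3 they were 17.8% of 269 (13.7 to 22.9%) and 9.83% (odds ratio 1.99, exact test, adjusted p = 0.000153). The HDAC2-labelled list gave 16.2% of 197 (11.7 to 22.0%) and 9.81% (odds ratio 1.78, exact test, adjusted p = 0.00787). The HDAC1-labelled list gave 16.0% of 169 (11.2 to 22.2%) and 10.3% (odds ratio 1.65, exact test, adjusted p = 0.0263), a call that was lost with the top 25% in place of the top 10% (exact test, adjusted p = 0.0594) and with areas of at least 1000 (exact test, adjusted p = 0.347). The CHD4-labelled list missed the threshold, with 7.19% of 292 (4.75 to 10.7%) against 10.3% (odds ratio 0.678, exact test, adjusted p = 0.0969). Its direction turned when peaks at gene ends were left out (odds ratio 1.33, exact test, adjusted p = 0.125). All are two-sided Fisher's exact tests with Benjamini-Hochberg adjustment over the 6 lists. A wider peak can touch a region more easily, and the part of peak width in these shares was not tested.

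In fold units the shift was modest in the middle of the distributions. Median enrichment was 5.87 on these regions and 4.85 elsewhere for RBBP4, 7.53 and 6.20 for RBBP7, and 5.00 and 4.61 for MBD3. It was 4.56 and 4.20 for the HDAC2-labelled list, 5.22 in both sets for the HDAC1-labelled list, and 5.42 and 5.64 for the CHD4-labelled list. For RBBP4 and RBBP7 the tall end held more of the difference. On 1 of the 518 regions lay 13 of the 100 RBBP4 peaks of highest fold, and 15 of the 102 of RBBP7 (ties included). Over the whole lists, 478 of 29762 RBBP4 peaks and 322 of 14918 RBBP7 peaks did. Among peaks of highest fold, the counts were 4 of 100 for MBD3 and 2 of 103 for the CHD4-labelled list. They were 4 of 103 for the HDAC1-labelled and 5 of 100 for the HDAC2-labelled list. The whole-list counts were 269 of 11721 for MBD3 and 292 of 18274 for the CHD4-labelled list. For the HDAC1-labelled list they were 169 of 11288, and for the HDAC2-labelled list 197 of 5517. Counts of 5 peaks or fewer are small, and these differences at the tall end were not tested. A few peaks were counted for 2 neighbouring regions, 8 of the 478 RBBP4 peaks and 4 of the 322 RBBP7 peaks.

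**Figure D4:**
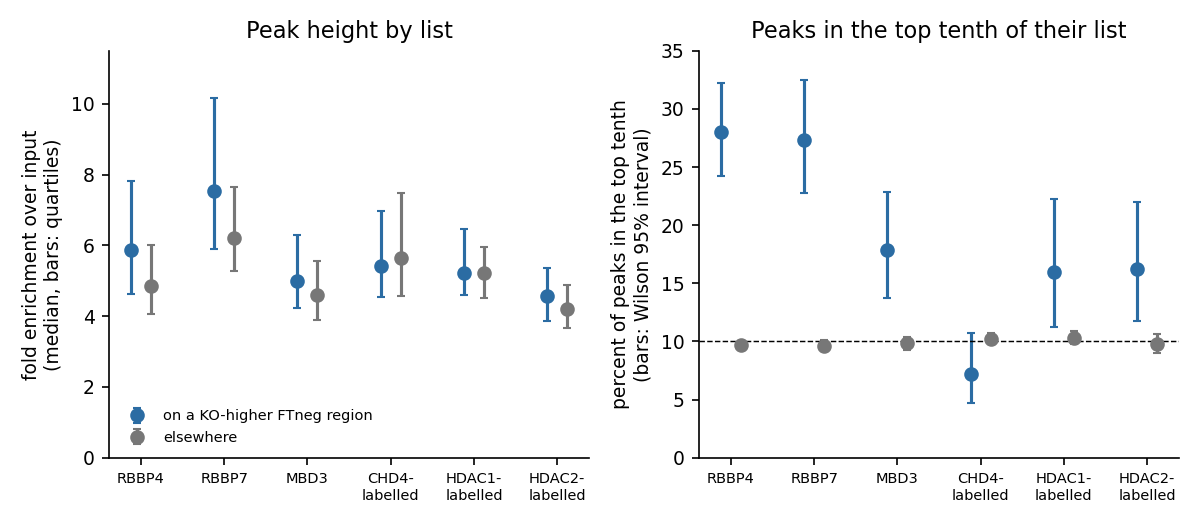
Left: fold enrichment over input (y axis) of the peaks of each list (x axis) on a KO-higher FTneg region (blue) and elsewhere (grey), as medians with quartile bars. Right: percent of those peaks in the top 10% of their list with Wilson 95% intervals and a dashed line at 10%; RBBP4 (28.0%) and RBBP7 (27.3%) lie highest and the CHD4-labelled list (7.19%) lowest.

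The tallest peaks on these regions met at 1 site. A 447 bp region inside Cacng4, whose protein is an accessory part of AMPA-type glutamate receptors (chr11:107784248-107784694), held the highest peak of 5 whole lists and the second highest of the CHD4-labelled list. Fold enrichment there was 46.6 for RBBP4, 50.7 for RBBP7, 40.1 for MBD3, 31.4 for the CHD4-labelled, 34.5 for the HDAC1-labelled and 16.0 for the HDAC2-labelled list. Its area was 575, summed over a region narrower than most, and its summit −log10 p of 5.62 was close to the median of the 518 regions (5.71). By its summit value the accessibility difference at this site was therefore ordinary for these regions, while its area lay below their lower quartile of 583. A region 77131 bp from Ifngr1, an interferon gamma receptor gene (chr10:19514212-19515640, area 820), ranked 11 in RBBP4, 17 in MBD3, 12 in the CHD4-labelled and 4 in the HDAC1-labelled list, with folds of 19.9, 21.4, 23.6 and 20.2.

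The next regions by their weakest list, among those with all 6, were nearest to Fbxl4, Fam172a, Hat1, Tle1, Prkd1, Eipr1, Umad1 and Epha3. In each of these 8 every list's peak ranked at or above the percentile 78.5 of its list, the value of the CHD4-labelled peak at Epha3, an ephrin receptor gene. RBBP4 folds ran from 9.95 at Eipr1 to 14.9 at Fbxl4, and RBBP7 folds from 8.84 at Eipr1 to 21.1 at Prkd1. By percentile within its own list, the MBD3 peak (15.4-fold) stood highest at Tle1 (percentile 99.5) and the RBBP7 peak (21.1-fold) at Prkd1 (99.9). At Epha3 RBBP4 (99.72) and RBBP7 (99.65), and at Hat1 the CHD4-labelled list (97.49) and RBBP4 (97.37), stood nearly level.

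The 95 regions with all 6 lists lay nearest to 86 different genes. Of these regions 39 were inside a gene, 35 were more than 100 kb from the nearest gene and 2 were at a gene end, Ccn1 and Zswim6. Their 6 ChIP summits spanned a median of 294 bp, and in 32 of the 95 (33.7%) they fell within 200 bp. Over all 518 regions the nearest ChIP summit of any list lay at a median of 74 bp from the accessibility summit. The medians by list were 131 bp for RBBP4, 147 bp for RBBP7, 162 bp for MBD3, 167 bp for the HDAC1-labelled, 171 bp for the CHD4-labelled and 180 bp for the HDAC2-labelled list. RBBP4 summits fell within 100 bp in 192 of its 480 regions, and HDAC2-labelled summits in 50 of 188.

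RBBP7 was the 1 list of 6 whose share differed past the threshold between KO-higher and WT-higher regions. Among FTneg regions with any peak, RBBP7 was on 315 of 518 KO-higher (60.8%) and on 3 of 38 WT-higher regions (7.89%, 2.72 to 20.8%). The odds ratio was 18.1 (exact test, adjusted p = 3.29e-10). The 3 WT-higher regions were at Dlx1, 1995 bp from Dlx2 and 145308 bp from Kcnn2, a potassium channel gene, with RBBP7 folds of 5.45, 5.82 and 5.28. Without the WT-higher regions nearest to Dlx genes the count was 1 of 28 (odds ratio 41.9). RBBP4 was on 92.7% and on all 38 (exact test, adjusted p = 0.197), and MBD3 on 50.8% and 31.6% (odds ratio 2.23, exact test, adjusted p = 0.0843). The CHD4-labelled (55.0 and 47.4%, exact test, adjusted p = 0.481), HDAC1-labelled (31.5 and 28.9%, exact test, adjusted p = 0.857) and HDAC2-labelled lists (36.3 and 26.3%, exact test, adjusted p = 0.438) missed the threshold of 0.05 too. With 38 WT-higher regions the intervals on that side are wide, and a missed threshold does not show equal shares. These were two-sided Fisher's exact tests, adjusted over the 6 lists. All 6 lists were on 95 of 518 KO-higher and 0 of 38 WT-higher regions, the latter with 7 regions at 5 lists. With RBBP7 on 3 of the 38, at most 3 could have carried all 6, so this 0 is not separate from the RBBP7 result.

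**Figure D5:**
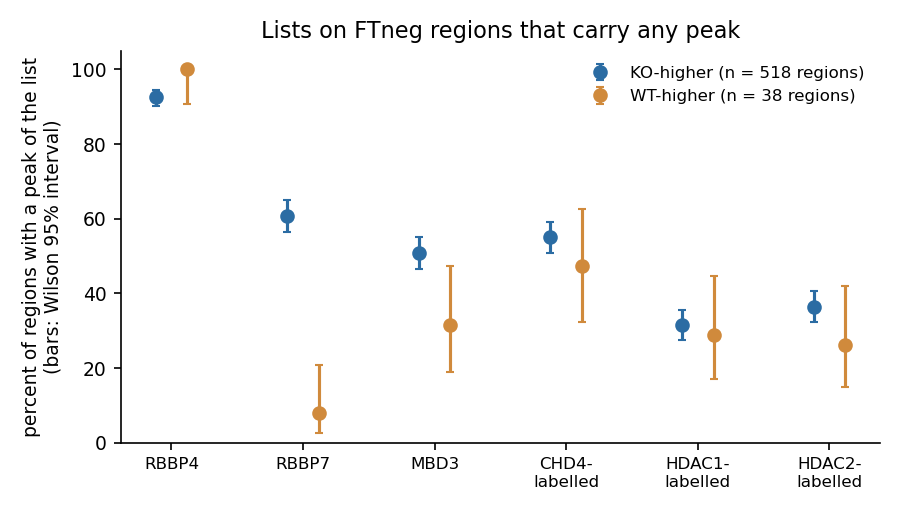
Percent of FTneg regions carrying a peak of each list (y axis, Wilson 95% intervals), among KO-higher (blue, 518) and WT-higher (orange, 38) regions that carry any peak. RBBP7 (60.8 against 7.89%) is the list whose intervals lie farthest apart.

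Gene ends were rare on these regions, unlike at NuRD peaks in general. A gene end here is a window of 1 kb around the first or last annotated base of a protein-coding gene, and exons could not be told from introns with the table used. Of the 517 merged ChIP regions on a KO-higher region, 26 touched a gene end (5.03%, 3.45 to 7.27%), against 13052 of 38303 elsewhere (34.1%). The odds ratio was 0.102 (Fisher's exact test, two-sided, p = 2.42e-57), in a comparison added after the values were seen. Within the KO-higher list the same feature did not set regions with a peak apart. There 25 of 518 (4.83%, 3.29 to 7.03%) touched a gene end, against 9 of 206 without a peak (4.37%, 2.32 to 8.09%; odds ratio 1.11, exact test, p = 1). That direction was not stable, since it turned when the ChIP summit had to lie inside the region (3.44 against 7.39%, odds ratio 0.447, exact test, p = 0.0237). Being inside a gene was about as frequent with a peak (236 regions, 45.6%) as without (47.1%). A position more than 100 kb from any gene was found for 141 of 518 and 37 of 206, values for which no test was run.

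The 25 gene-end regions carried few lists. Regions with a single list made up 13 of them, 7 with RBBP4 and 6 with the CHD4-labelled list, so that 6 of the 13 regions where the CHD4-labelled list stood alone were at gene ends. These 6 were at H3c7 and H2bc9, Fancc, Cdc26 and Prpf4, Sox1, Nek5 and Pgk1. The greatest area at a gene end belonged to Cwc22, a splicing factor gene (1403, with RBBP4, CHD4-labelled and HDAC1-labelled peaks), followed by Ebf3, an early B-cell factor gene (1391, RBBP4 and MBD3). Others were at Ccn1 (834, all 6 lists), Wnt8b (797), Otp (790), Abca1 (772), Barhl1 (763) and Nrarp (731). At Nrarp, an inhibitor of Notch signalling, the CHD4-labelled peak reached 11.3-fold and the RBBP4 peak 3.68-fold. That CHD4-labelled peak had its summit outside the region, at −1586 bp from the accessibility summit. The Sp9 region (651), at a zinc finger gene of the ganglionic eminence lineage, carried RBBP4 at 6.85-fold, the CHD4-labelled list at 8.63-fold and the HDAC1-labelled list at 5.32-fold. Its CHD4-labelled summit also lay outside the region, at −756 bp from the accessibility summit.

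The 518 regions were nearest to 440 genes, 2.1% of the 20953 protein-coding genes with a curated RefSeq transcript. Every share of a gene list below is to be read against 2.1%. It is to be read also against the room around a gene, because genes nearest to a region were nearest to a median of 370 kb of the genome, against 45.0 kb for all genes. Nearness says nothing of which gene a region acts on, and the lists below share members. At least 2 regions had the same nearest gene for 60 genes, and 3 or more for 17.

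Tcf12, which encodes an E protein of the basic helix-loop-helix family, had 4 regions inside it, the most of any gene. Their areas were 981, 575, 567 and 536, with 5, 2, 5 and 2 lists. The other 16 genes had 3 regions each, and they were Castor2, Cdc73, Cited2, Dcc, Ebf3, Fam172a, Isl1, Lrig1, Macrod2, Marcks, Med10, Setbp1, Tenm2, Tle1, Tmem161b and Zfp608. At Tmem161b, a membrane protein gene, all 3 regions carried all 6 lists, at distances of 142113 to 234286 bp from the gene. At Tle1 2 of the 3 did, with RBBP4 folds of 11.1 and 10.3, while the third, of greater area, had RBBP4 alone at 5.13-fold. At Isl1, a LIM homeodomain gene of striatal and cholinergic neurons, the 3 regions lay 188153 to 210424 bp away and carried 6, 4 and 3 lists.

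Neural Sox genes had the highest share of any list examined. Of 13, 8 were nearest to a region (61.5%), for a list whose genes were nearest to a median of 360 kb. They were Sox1, Sox4, Sox5, Sox6, Sox9, Sox11, Sox13 and Sox21, transcription factors of neural progenitors and their progeny, with 11 regions. A Sox21 region (chr14:118229739-118231374, area 1949) carried all 6 lists. Its folds were 17.3 for RBBP4, 20.6 for RBBP7, 7.85 for MBD3, 12.2 for the CHD4-labelled, 7.69 for the HDAC1-labelled and 4.57 for the HDAC2-labelled list. The CHD4-labelled peak of 12.2-fold also reached the neighbouring Sox21 region. Its summit lay 2481 bp from the accessibility summit of that neighbour, outside both regions. A region inside Sox6 (area 567) also carried all 6, with RBBP7 at 18.3-fold (percentile 99.6 of its list). So did a region 584409 bp from Sox9 (area 732), where RBBP4 at 6.53-fold and RBBP7 at 7.80-fold were at percentiles 81.4 and 76.7 of their lists. By contrast the Sox1 and Sox11 regions carried the CHD4-labelled list alone, at 11.1-fold and 5.14-fold. The Sox1 peak had its summit outside the region, at −1329 bp from the accessibility summit.

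Ventricular zone progenitor genes came with 8 of 30 (26.7%), and 4 of their 11 regions carried all 6 lists. Besides Sox1, Sox9 and Sox21 they were Gli3, Gsx1, Gsx2, Hes1 and Nkx2-1. Both regions inside Gli3, the Hedgehog pathway transcription factor, carried all 6 lists (areas 710 and 580, RBBP4 folds 7.66 and 9.92). The regions nearest to Gsx1 and Gsx2 (32832 and 7577 bp away), homeodomain genes of eminence progenitors, carried 5 lists each (areas 558 and 751). The region 72263 bp from Nkx2-1, which specifies the medial eminence, carried RBBP4 alone (area 563). That peak was of 11.2-fold but shared only 67 bp with the region. Its summit lay outside the region, at −703 bp from the accessibility summit. Notch pathway genes came with 7 of 27 (25.9%), and none of their 8 regions carried all 6 lists. The ligand gene Dll1 had a region with 3 lists (area 959), and the modifier gene Mfng a region with 5 (730). The coactivator genes Maml2 and Maml3 had regions with 2 lists (1045) and 1 (620), Mib1, which encodes a ubiquitin ligase for the ligands, a region with 2 (1553), and the effector gene Hes1 regions with 5 (652) and 2 (671).

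Genes of the GABAergic lineage came with 11 of 47 (23.4%) and 14 regions, of which 2 carried all 6 lists, nearest to Isl1 and Sox6. The greatest area among them was 1940, for a region 1549720 bp from Zeb2, a zinc finger factor of migrating interneurons, with 5 lists. A region inside Zfhx3 had an area of 1234 and 4 lists, and one 213871 bp from Prox1 965 and RBBP4 alone. Regions 186581 bp from Sp8 (801) and 55804 bp from Lhx8 (735) carried 4 and 3 lists, with RBBP4 folds of 9.73 and 5.15. Foxp2, Maf, Sox11 and Sp9 completed this group. Cholinergic genes (3 of 11, 27.3%) shared Isl1 and Lhx8 with it and added Zic4, with 3 lists and an area of 1350.

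Axon guidance and migration genes came with 9 of 41 (22.0%), for a list with a median of 650 kb nearest to a gene. Of their 12 regions 5 carried all 6 lists. They were inside Epha3 and Robo1, and at 205173 bp from Epha3, 374498 bp from Dcc and 875780 bp from Epha4. Robo1, a receptor for SLIT proteins, had an RBBP7 peak of 19.4-fold and an MBD3 peak of 11.9-fold (area 847). Slit2, a SLIT ligand gene, had a region with RBBP4 alone at 4.49-fold (area 1203), and Nrp1, a semaphorin co-receptor gene, one with 3 lists (1600.3). Corepressor genes came with 4 of 21, namely Bcor, Tle1, Tle4 and Zfp608, and 4 of their 9 regions carried all 6 lists. The 2 regions inside Tle4 lay 475 bp apart by summit and shared 1 RBBP4 peak of 9.17-fold. Wnt signalling genes (5 of 32, 15.6%) were Axin2, Fzd9, Lgr5, Wnt7b and Wnt8b, and Hedgehog genes (2 of 14) were Gas1 and Gli3.

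Lists of other cell types were read against the same 2.1%. Cortical glutamatergic genes came with 2 of 20, Eomes (158830 bp away, area 862, all 6 lists) and Tle4, and oligodendrocyte and astrocyte genes with 2 of 17, Nfia and Olig1 (1423, 2 lists). None of 14 endothelial and mural genes, of 9 microglial genes and of 15 NuRD subunit genes was nearest to a region, and of 10 housekeeping genes only Pgk1 was. At 2.1% each of these lists would hold fewer than 1 such gene, so a count of 0 does not set them apart. The cortical and glial shares lay above 2.1%, and no test compared any of these lists with the others. The median room around the gene was 172.5 kb for endothelial and mural, 30.0 kb for microglial and 45.0 kb for NuRD subunit genes. All 3 lists had less of it than the Sox and GABAergic lists, with 360 kb each.

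In FTpos cells few regions were called KO-higher at all, so few of the 518 regions could recur there. The FTpos KO-higher list held 12 regions, which overlapped 2 of the 518 regions, nearest to Zfp324 (FTpos area 751) and at Pgk1 (827), and 8 of the 206 without a peak. The FTpos and FTneg fractions appear to come from the same embryos, by their numbering. A region of the FTpos WT-higher list overlapped the Cwc22 region, with an area of 1664 there against 1403 in the FTneg KO-higher list.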

How the data were processed

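ChIP-seq lists came from E13.5 basal ganglia (1 library per subunit, called against input) and accessibility lists from 3 embryos per genotype combined. MACS2 2.2.7.1, Genrich, deepTools, SAMtools 1.10 and BWA were used with build mm10, per the submitters' processing notes, and their settings are not given in the sources used here. The deposited lists give for each ChIP peak the fold enrichment over input (a ratio), −log10 p and −log10 q, and the authors' summit position. For each accessibility region the authors deposited a score, the area under −log10 p, kept at 500 or above, and the −log10 p at the summit. These values, computed by the authors, served for description and filtering, and for ranking inside 1 list. Raw folds of different lists have different inputs and scales and were not ranked against each other. Read depth is unknown.

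Overlaps, merged regions, nearest genes and gene ends were computed in Python 3.11.15 with numpy 2.4.6, pandas 2.3.3 and SciPy 1.17.1, and the overlap code was tested on simulated lists. Genes were the 20953 of 21900 protein-coding RefSeq genes (GRCm38.p6) with a curated transcript on chromosomes 1 to 19 and X; a region went to the gene body nearest to its summit. Where a region had several peaks of a list, the peak of highest fold was used, and the nearest summit for distances. Shares were compared with two-sided Fisher's exact tests over regions, with 0.5 added to all 4 counts of a table that held a 0, and Wilson 95% intervals cover counting error over regions only. Replicates, and so any test over embryos, were not available in the lists.

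Named are the 10 regions of greatest area, the 10 with all 6 lists whose weakest list ranks highest, the tallest peak of each list, the 2 of greatest area with each list alone, the 10 of greatest area at gene ends, genes nearest to 3 or more regions, genes of the lists, and regions at the edges of the rule; only part of them is printed. The Sox21, Slc36a4 and WT-higher details were chosen after their values were seen. The regions and the gene lists were chosen with earlier results of these data known. Alternatives changed the overlap, the ChIP and area thresholds, the lists, the gene-end window and the fraction of peaks called tall.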

Additional observations from a re-analysis of the deposited data

Results flagged for a closer look

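The region at the end of Cwc22 (chr2:77946108-77946509) was called in opposite directions in the 2 fractions. It was KO-higher in FTneg cells with an area of 1403 and WT-higher in FTpos cells with an area of 1664. The difference was not tested, since each list combines the embryos. Its summit −log10 p of 12.1 was the highest of the 518 regions. Its RBBP4 peak had the lowest fold enrichment of any RBBP4 peak on these regions (2.2), while the CHD4-labelled peak there reached 7.72-fold with a −log10 q of 143. A CHD4-labelled peak of similar height inside Auts2, 7.62-fold, had a −log10 q of 20.3. The q value at Cwc22 was thus unusual for its fold, and the reason was not tested.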

How the results depend on the processing

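The share of KO-higher FTneg regions with a peak (71.5%) was 64.4% when at least 50% of the region had to be covered, 57.6% with ChIP peaks of −log10 q of at least 10, 75.0% among areas of at least 1000, and 59.3% without the RBBP4 list. The 95 regions with all 6 lists (18.3%) became 28 (6.71%) with −log10 q of at least 10. With areas of at least 1000 they were 29 of 114 (25.4%). Both settings leave fewer peaks or regions, and the share fell in the first and rose in the second. The gene-end odds ratio against regions without a peak (1.11) turned to 0.770 with a 5 kb window, 0.447 with the ChIP summit inside, 0.208 with areas of at least 1000, and 0.942 with start sites of the promoter table. That last setting, the summit of a region at a gene end, the 3 lists with matching names and the width range were chosen after seeing the data. The CHD4-labelled odds ratio for tall peaks (0.678) turned to 1.33 away from gene ends, the HDAC1-labelled value (1.65) fell below the threshold at 1.40 (top 25%) and 1.44 (areas of at least 1000), and the HDAC1-labelled KO-to-WT odds ratio (1.13) turned to 0.954 with the ChIP summit inside. In these cases the cause was not tested. The other 42 alternative values kept direction and side of the threshold, or moved within the stated range. The odds ratio for all 6 lists stayed between 3.47 and 9.02. No paired analysis was possible because each accessibility list combines its embryos and the ChIP libraries have no replicates.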

Other observations

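Several regions stood close together. Within 10 kb of each other lay 18 pairs, among them the Prkd1 pair with areas of 565 and 4771, the Sox21 pair with 1949 and 666, and the Hat1 pair with 2139 and 751. Both Hat1 regions carried all 6 lists, but shared the same RBBP4, MBD3, CHD4-labelled and HDAC2-labelled peaks. The summits of these shared peaks lay outside the region of area 2139, at 1886 to 2021 bp from its accessibility summit. Its HDAC1-labelled overlap was 13 bp. The Hat1 regions lay 109017 and 107402 bp from Dlx1 and Dlx2, the nearest of the 40 regions on chromosome 2 to the deleted genes. Within 5 Mb of those genes were 8 of these 40, and within 10 Mb 10 of them. Among the regions without a peak the counts were 3 and 6 of 22.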
